A study of Mus musculus with 18 samples.

Results

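The 9 genes described here encode proteins that bind cytokine mRNAs and set how long those mRNAs last: *Arid5a*, *Elavl1*, *Zc3h12a*, *Zc3h12c*, *Zfp36*, *Zfp36l1*, *Zfp36l2*, *Rc3h1* and *Hnrnpd*. They were taken by name from a table of 20615 genes, and all 9 passed the filter on low counts. The set was chosen by earlier results of the same samples, above all the high *Arid5a* counts of SjSS macrophages given apoptotic cells, so every value of *Arid5a* that involves apoptotic cells is given as a description with no test.

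The samples were bone marrow-derived macrophages (BMDMs), which are macrophages grown from bone marrow with M-CSF, here from L929 supernatant for 7 days. They came from female mice aged 7 to 12 weeks of 2 strains, C57BL/6 (B6) and C57BL/6.NOD-Aec1Aec2 (SjSS), the second of which carries the NOD intervals Aec1 and Aec2 on the B6 background and is used as a model of Sjögren's syndrome. In each strain there were 3 control samples, 3 samples given apoptotic cells (ACs) and 3 given CpG, an oligonucleotide ligand of TLR9, or 18 samples in 6 groups. The ACs were thymocytes killed with dexamethasone, given at 5 per BMDM for 2 h and washed off, with a further 3 h in culture by the labels, and CpG was given at 1 µM for 6 h. The study compared how BMDMs of the 2 strains respond to dead cells, with CpG as a direct stimulus. AC and CpG samples therefore differed in time course as well as in stimulus. The strain of the thymocytes was not given for these samples. The labels do not say that equal replicate numbers mark the same mouse, so p-values measure the spread between these samples.

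Many cytokine mRNAs are short-lived because their 3′ untranslated region (UTR) holds AU-rich elements or stem-loops. Tristetraprolin, the product of *Zfp36*, and its relatives encoded by *Zfp36l1* and *Zfp36l2* bind AU-rich elements and recruit the deadenylation machinery, while Regnase-1 (*Zc3h12a*) and Regnase-3 (*Zc3h12c*) are endonucleases and Roquin-1 (*Rc3h1*) binds stem-loops. On the other side, Arid5a binds the *Il6* 3′ UTR and protects it from Regnase-1, and HuR (*Elavl1*) stabilises AU-rich mRNAs. AUF1 (*Hnrnpd*) binds the same elements and can act in either direction. Several of these regulators carry such elements themselves, and transcription of *Zfp36* and *Zc3h12a* is induced by Toll-like receptor signalling.

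The estimated counts of a sample summed to between 30688336 and 57139662. BMDM identity was checked with 8 macrophage genes, all of which were detected in every sample, with summed levels between 15300 and 22900 CPM (a gene's counts scaled to a common library total, by TMM). Of 20 thymocyte and T-lineage genes 18 were in the table used here, and 17 of them stayed at or under 1.16 CPM in every sample. *Rag1* had 0 counts in the 4 groups without ACs, 24 counts over the B6 AC samples and 3 over the SjSS AC samples. The exception to the low levels was *Cd28*, at 5.36 to 76 CPM. The summed level of the list was 53.5 to 77.7 CPM in controls, 23.6 to 35.1 CPM with ACs and 6.39 to 11.7 CPM with CpG. This sum followed *Cd28* rather than the other 17 genes. *Cd28* had means of 70 CPM in B6 controls and 23.8 CPM in B6 with ACs, of summed means of 71.7 and 27 CPM. In B cell and neutrophil genes the sum was 15.5 to 29.4 CPM over all samples. Fewer cells of a type and less RNA per cell cannot be told apart in such bulk samples.

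To show the sequences that the family is known for, the AU-rich heptamer TATTTAT was searched on the sense strand of 1 annotated 3′ UTR per gene (GENCODE, mm10), a search chosen after the expression values were seen. *Zfp36*, *Zfp36l1* and *Zfp36l2* held 3 matches each, in 3′ UTRs of 774, 1835 and 1822 bases. *Elavl1* held 8 overlapping or nearby matches in 4218 bases, and *Zc3h12c* (4062 bases) and *Rc3h1* (7181 bases) held 2 each. *Arid5a*, *Zc3h12a* and *Hnrnpd* held none in 2788, 856 and 5429 bases. Of 12372 tested genes with an annotated 3′ UTR, 28.4% held at least 1 match and 3.61% at least 3, and longer UTRs have more room for a match. The sites of *Zfp36*, whose mRNA its own product is known to bind, and 1 site of each of its relatives are printed 5′ to 3′ with 11 bases on either side and the heptamer in capitals.
*Zfp36* site 1, chr7:28376966-28376994, minus strand: agtgggcccttTATTTATgacgactttat
*Zfp36* site 2, chr7:28376951-28376979, minus strand: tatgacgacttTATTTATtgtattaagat
*Zfp36* site 3, chr7:28376926-28376954, minus strand: agattttatagTATTTATatatattgggt
*Zfp36l1* site 1, chr12:80108422-80108450, minus strand: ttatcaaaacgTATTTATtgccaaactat
*Zfp36l2* site 1, chr17:84184914-84184942, minus strand: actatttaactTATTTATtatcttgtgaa

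The first and second *Zfp36* sites lie within 15 bases of each other, at 575 and 590 bases after the stop codon, and the third at 615, so that the 3 form 1 cluster near the end of a short UTR. The 8 *Elavl1* matches also form 1 cluster, from 3795 to 3841 bases after the stop codon. One stretch of it is shown because its heptamers overlap.
*Elavl1* site 3, chr8:4285780-4285808, minus strand: aattatttattTATTTATttatttttatt

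**Figure D1:**
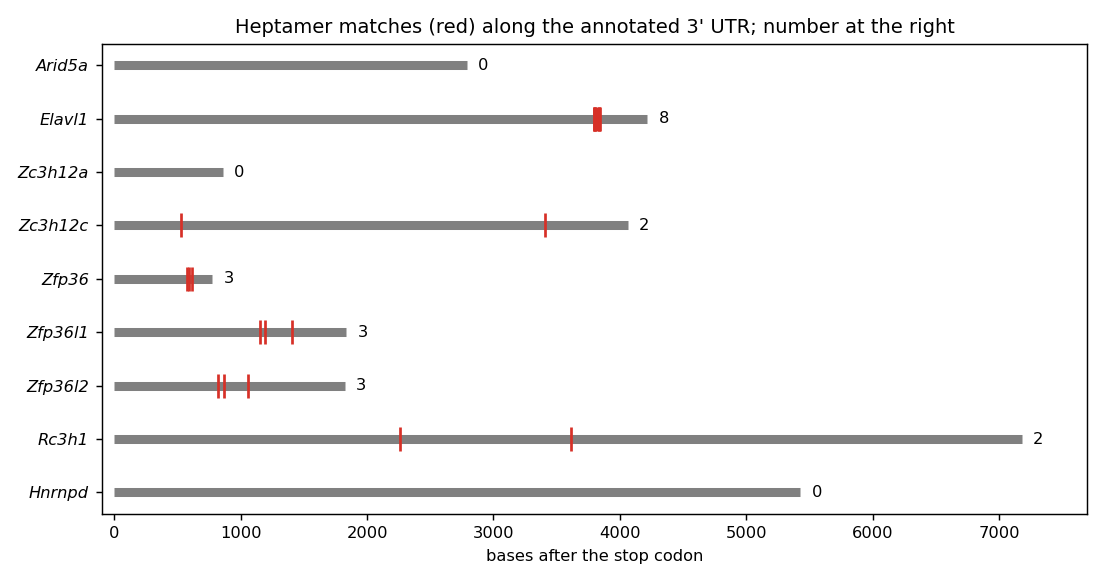
Annotated 3′ UTRs of the 9 genes as grey bars from the stop codon (x axis, bases), with matches to the heptamer TATTTAT as red ticks and their number at the right end. The 3 *Zfp36* matches sit together in the shortest of the UTRs, and *Arid5a*, *Zc3h12a* and *Hnrnpd* have 0 matches.

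Promoter windows of RefSeq (GRCm38.p6, 250 bases before to 50 bases after an annotated start) matched 8 of the 9 genes. They were searched on both strands for 3 motifs: a kappaB-like one of GGG and CC separated by 5 bases, a GAS-like one, TTCNNNGAA, and an ISRE-like one of GAAA and GAAA separated by 2 bases. The kappaB-like motif was present in 50.8% of all 32851 windows, the GAS-like motif in 8.3% and the ISRE-like motif in 3.44%. *Arid5a* and *Zfp36* are printed because with ACs they were further above B6 in SjSS than the other 7 genes, in the sense of each gene, with matches in capitals.
*Arid5a*, chr1:36307483-36307782, plus strand: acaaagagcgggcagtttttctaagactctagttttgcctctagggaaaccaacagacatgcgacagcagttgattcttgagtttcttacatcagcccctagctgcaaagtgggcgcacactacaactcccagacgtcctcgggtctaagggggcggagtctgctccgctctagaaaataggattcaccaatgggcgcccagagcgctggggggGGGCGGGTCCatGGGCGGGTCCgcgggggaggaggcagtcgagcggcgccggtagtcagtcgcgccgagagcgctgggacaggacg
*Zfp36*, chr7:28379179-28379478, minus strand: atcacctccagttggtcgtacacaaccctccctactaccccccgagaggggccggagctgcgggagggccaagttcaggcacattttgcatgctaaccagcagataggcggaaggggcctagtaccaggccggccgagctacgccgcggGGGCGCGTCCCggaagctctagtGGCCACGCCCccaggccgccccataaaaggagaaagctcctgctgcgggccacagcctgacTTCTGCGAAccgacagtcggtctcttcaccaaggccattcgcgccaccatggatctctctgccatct

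The *Arid5a* window held 2 kappaB-like matches with the same letters, starting at bases 215 and 227 of the 300. The *Zfp36* window held 3 kappaB-like matches, of which the first and second overlap, and the GAS-like match TTCTGCGAA at base 234. That was the only GAS-like match in the windows of the 8 genes, and no ISRE-like match was found in them. *Zfp36l1* and *Elavl1* had no match to any of the 3 motifs. *Zc3h12a*, *Rc3h1* and *Hnrnpd* had 3 kappaB-like matches each, and the 2 windows of *Zc3h12c* had 5 and 2. These are letter matches and say nothing about binding.

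*Arid5a* (chr1:36307733-36324029 in mm10, plus strand) was low in 5 of the 6 groups and high in the sixth. In SjSS BMDMs given ACs it measured 125, 140 and 132 CPM in the 3 samples. In SjSS controls it measured 12.7, 9.99 and 10.8 CPM, and in SjSS BMDMs given CpG 6.72, 6.03 and 9.04 CPM. All 3 AC samples of SjSS thus stood far above every other sample, the next highest being an SjSS control. B6 controls had 11, 11.2 and 10.8 CPM, B6 BMDMs with ACs 6.97, 6.83 and 7.58 CPM, and B6 BMDMs with CpG 9.17, 11 and 7.84 CPM. In B6, the AC samples lay below the controls without overlap, the opposite side from SjSS. The log2 fold change with ACs was 3.56 in SjSS and -0.63 in B6, and the group mean of SjSS with ACs, 132 ± 7.45 CPM (SD, n = 3), was 18.5 times the lowest group mean. These AC values led to the choice of the gene. The other 5 groups, from 11.2 down to 7.12 CPM, formed a series in which each overlapped the next.

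The comparisons of *Arid5a* that did not involve ACs were tested. In untreated BMDMs the strains differed by a log2 fold change of 0.03 (SjSS against B6, 95% interval -0.23 to 0.29, adjusted p = 0.9). With CpG *Arid5a* fell by 0.63 on the log2 scale in SjSS (SE 0.13, adjusted p = 0.000415), whereas in B6 the change of -0.24 did not pass the test (SE 0.13, adjusted p = 0.111), except without B6 CpG replicate 2 (0.0227). The difference between these CpG responses, -0.39 (SE 0.18, adjusted p = 0.237), did not pass either. Between strains with CpG the log2 fold change was -0.36 (adjusted p = 0.0658). Without SjSS CpG replicate 3, the highest of its group, these last 2 values passed (adjusted p = 0.0382 and 0.00484), and the strain difference also passed without B6 CpG replicate 3 (0.0151).

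Regnase-1 mRNA, *Zc3h12a* (chr4:125118423-125127840, minus strand), had its highest level with CpG. B6 samples had 53.1, 55.6 and 50.1 CPM as controls, 67.2, 74.8 and 72.2 CPM with ACs, and 215, 219 and 192 CPM with CpG. SjSS samples had 33.6, 40.2 and 29.1 CPM as controls, 69.3, 70.5 and 74.1 CPM with ACs, and 148, 146 and 164 CPM with CpG. Untreated SjSS BMDMs thus started lower, by 0.63 on the log2 scale (log2 fold change -0.63, SE 0.09, adjusted p = 6.65e-05), and after ACs the strains overlapped. With ACs *Zc3h12a* rose by 0.43 in B6 (SE 0.09, adjusted p = 0.000634) and by 1.06 in SjSS (SE 0.09), and the difference of 0.63 between the responses passed the test (SE 0.13, adjusted p = 0.000564). With ACs the strains themselves differed by 0.00 (95% interval -0.19 to 0.18, adjusted p = 0.986). CpG raised it by 1.98 in B6 and 2.16 in SjSS, and with CpG it was lower in SjSS by a log2 fold change of -0.45 (adjusted p = 0.000988).

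Regnase-3 mRNA, *Zc3h12c* (chr9:52111344-52168572, minus strand), had the same order of stimuli, with larger changes. B6 samples had 34.6, 33.9 and 29.4 CPM as controls, 65.7, 79.6 and 84.7 CPM with ACs, and 196, 172 and 181 CPM with CpG. SjSS samples had 21.9, 21 and 15.9 CPM as controls, 100, 101 and 108 CPM with ACs, and 159, 146 and 146 CPM with CpG. No 2 of the 6 groups that were neighbours in level overlapped. SjSS was the lower strain without treatment (log2 fold change -0.74, SE 0.11, adjusted p = 9.18e-05) and the higher one with ACs (0.42, SE 0.10, adjusted p = 0.00193). The AC response was 1.23 in B6 (SE 0.10, adjusted p = 2.79e-08) and 2.40 in SjSS, a difference of 1.16 (SE 0.15, adjusted p = 4.83e-06). CpG gave 2.49 in B6 and 2.94 in SjSS, and the difference of 0.45 did not pass (adjusted p = 0.0787), except without SjSS control replicate 1 (0.0399).

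**Figure D2:**
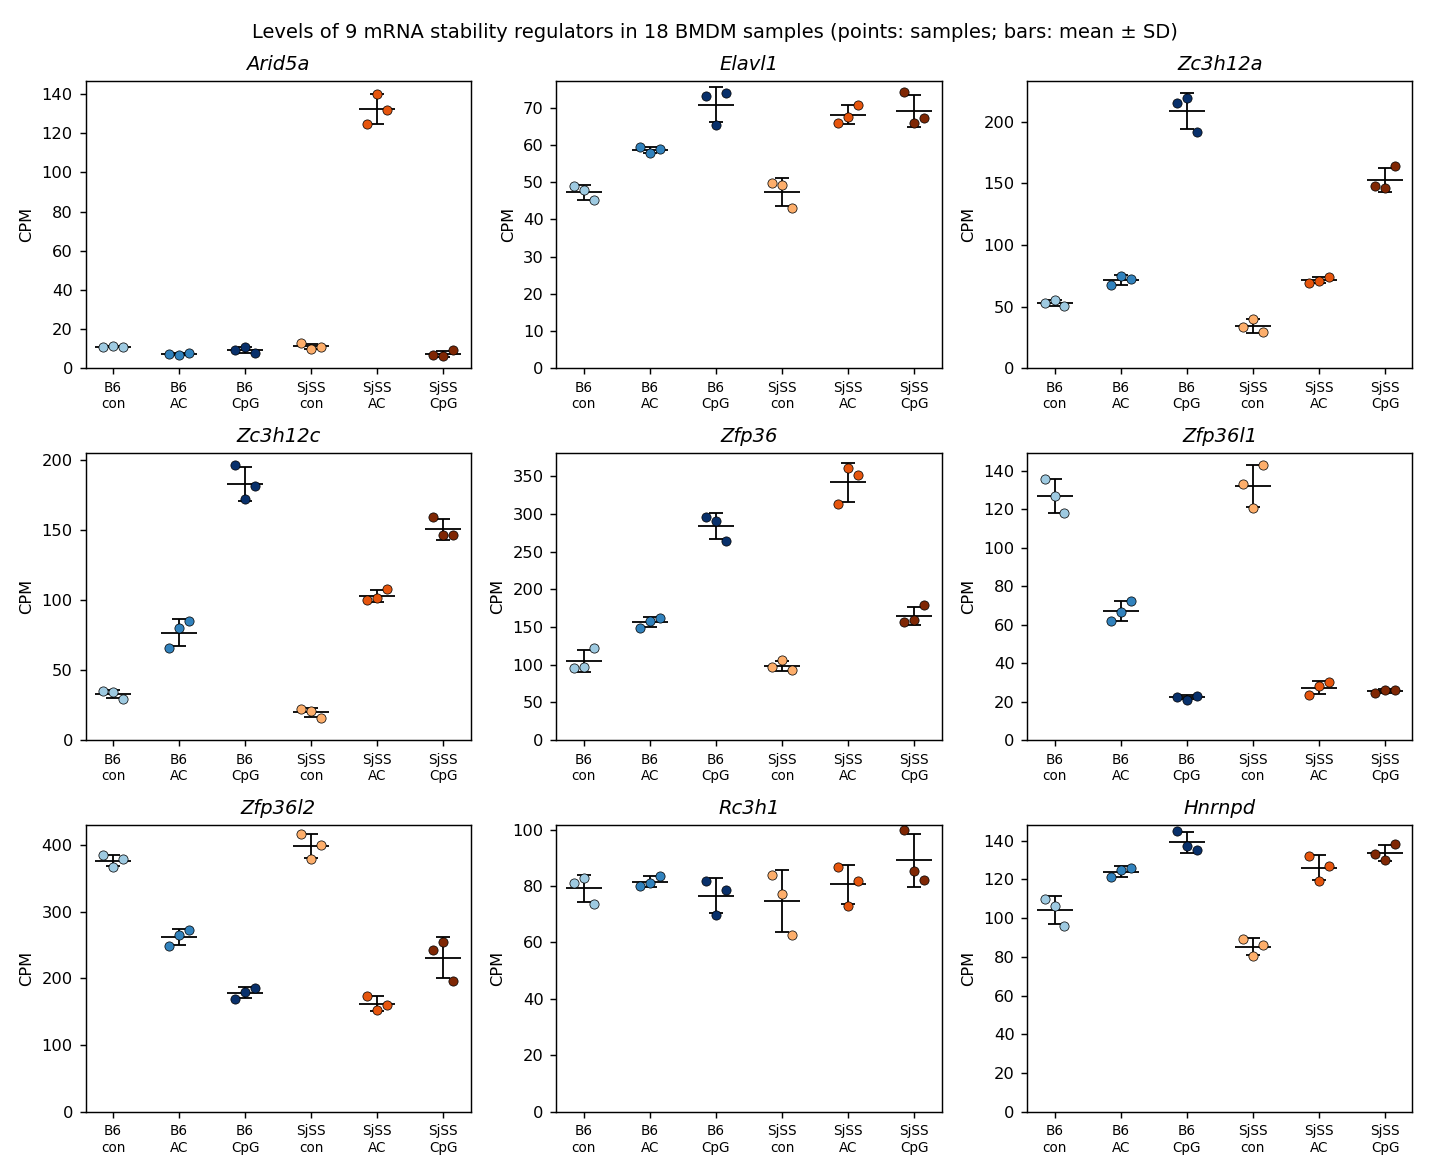
CPM (y axes, linear from 0) of each gene in the 18 samples, as points by strain and treatment (con is control), with horizontal bars at the group mean and vertical bars of ± SD (n = 3). *Arid5a* is high in 1 group, *Zc3h12a* and *Zc3h12c* are highest with CpG, and *Zfp36* is highest with ACs in SjSS but with CpG in B6.

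Tristetraprolin mRNA, *Zfp36* (chr7:28376784-28380253, minus strand), was highest with ACs in SjSS and with CpG in B6. B6 controls had 95.8, 97.1 and 122 CPM, B6 BMDMs with ACs 149, 158 and 162 CPM, and B6 BMDMs with CpG 296, 291 and 264 CPM. SjSS controls had 97.2, 106 and 92.9 CPM, SjSS BMDMs with ACs 313, 361 and 352 CPM, and SjSS BMDMs with CpG 157, 159 and 179 CPM. The 2 control groups overlapped, and so did B6 with ACs and SjSS with CpG, while the SjSS AC samples were all above the B6 CpG samples. *Zfp36* rose with ACs by 0.57 in B6 (SE 0.09, adjusted p = 3.15e-05) and by 1.79 in SjSS, a difference of 1.22 (SE 0.12, adjusted p = 2.2e-07). It rose with CpG by 1.43 in B6 and by only 0.74 in SjSS, a difference of -0.69 (SE 0.12, adjusted p = 0.00219). AC against CpG was -0.86 in B6 (SE 0.09, adjusted p = 1.18e-07) and 1.05 in SjSS (SE 0.09, adjusted p = 6.35e-09), so the order of the stimuli was opposite in the strains. Between the strains, *Zfp36* was higher in SjSS with ACs (1.13, SE 0.09, adjusted p = 2.6e-09) and lower in SjSS with CpG (-0.78, SE 0.09, adjusted p = 3.45e-06). Controls differed by -0.09 (95% interval -0.27 to 0.09, adjusted p = 0.516).

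*Zfp36l1* (chr12:80107754-80113013, minus strand), which encodes a close relative of tristetraprolin, moved the other way. B6 controls had 136, 127 and 118 CPM, B6 BMDMs with ACs 62, 66.7 and 72.2 CPM, and B6 BMDMs with CpG 22.6, 20.9 and 22.8 CPM. SjSS controls had 133, 121 and 143 CPM, SjSS BMDMs with ACs 23.6, 28 and 30 CPM, and SjSS BMDMs with CpG 24.2, 26.2 and 26.1 CPM. In SjSS, AC samples overlapped CpG samples, while in B6 they lay between controls and CpG samples. With ACs *Zfp36l1* fell in both strains, with log2 fold changes of -0.93 in B6 (SE 0.08, adjusted p = 5.48e-08) and -2.28 in SjSS, and the difference of -1.36 passed the test (SE 0.12, adjusted p = 3.51e-08). With CpG it fell as well, with -2.52 in B6 and -2.38 in SjSS, and their difference was 0.15 (95% interval -0.10 to 0.40, adjusted p = 0.545). AC against CpG was 1.60 in B6 (SE 0.09, adjusted p = 3.07e-11) and 0.09 in SjSS (95% interval -0.09 to 0.28, adjusted p = 0.387). *Zfp36l1* shares 1672 annotated exon bases with Gm26669 on the opposite strand, which had at most 458 counts in a sample, and without a stated strand setting reads of the pair cannot be told apart.

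*Zfp36l2* (chr17:84183931-84187947, minus strand), the third of the family, fell with both stimuli. B6 controls had 384, 367 and 378 CPM, B6 BMDMs with ACs 248, 265 and 272 CPM, and B6 BMDMs with CpG 169, 180 and 185 CPM. SjSS controls had 416, 379 and 400 CPM, SjSS BMDMs with ACs 174, 152 and 160 CPM, and SjSS BMDMs with CpG 243, 254 and 196 CPM. As for *Zfp36*, the stimulus with the larger change was CpG in B6 and ACs in SjSS, in the opposite direction. AC against CpG was 0.56 in B6 (SE 0.08, adjusted p = 8.77e-06) and -0.51 in SjSS (SE 0.08, adjusted p = 1.95e-05). The AC responses of -0.53 in B6 and -1.30 in SjSS differed by -0.77 (SE 0.11, adjusted p = 1.79e-05), while the CpG responses of -1.08 and -0.79 differed by 0.29 (adjusted p = 0.129, and 0.00953 without SjSS CpG replicate 3). SjSS was lower with ACs (-0.69, adjusted p = 6.05e-07) and higher with CpG (0.38, adjusted p = 0.00203).

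Levels of the 3 relatives were compared per kb of annotated exon. In B6 controls *Zfp36* made up 16.9% ± 2.2 (SD, n = 3) of the family's summed CPM per kb and in SjSS controls 15.4% ± 1.54. With ACs the share was 31.8% ± 0.248 in B6 and 64.1% ± 2.69 in SjSS, and with CpG 58.5% ± 2.41 and 39.3% ± 4.59. The sum itself went from 179 ± 4.25 CPM per kb in B6 controls to 142 ± 7.07 with ACs and 140 ± 3.04 with CpG, and from 186 ± 6.32 in SjSS controls to 154 ± 5.34 with ACs and 122 ± 5.38 with CpG. *Zfp36l2* was the largest part of both control groups, at 59.4% ± 0.46 in B6 and 60.8% ± 0.965 in SjSS. Dividing by the length of 1 transcript per gene instead gave *Zfp36* shares of 20.1% and 18.4% in controls, 36.7% and 69% with ACs, and 63.7% and 44.5% with CpG, in B6 and SjSS. The sums by that length were 187 CPM per kb in controls, 153 with ACs and 159 with CpG in B6, and 192, 178 and 133 in SjSS. The size of the fall in the sum thus depended on the length used. These shares and sums were chosen after the values were seen and were not tested.

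**Figure D3:**
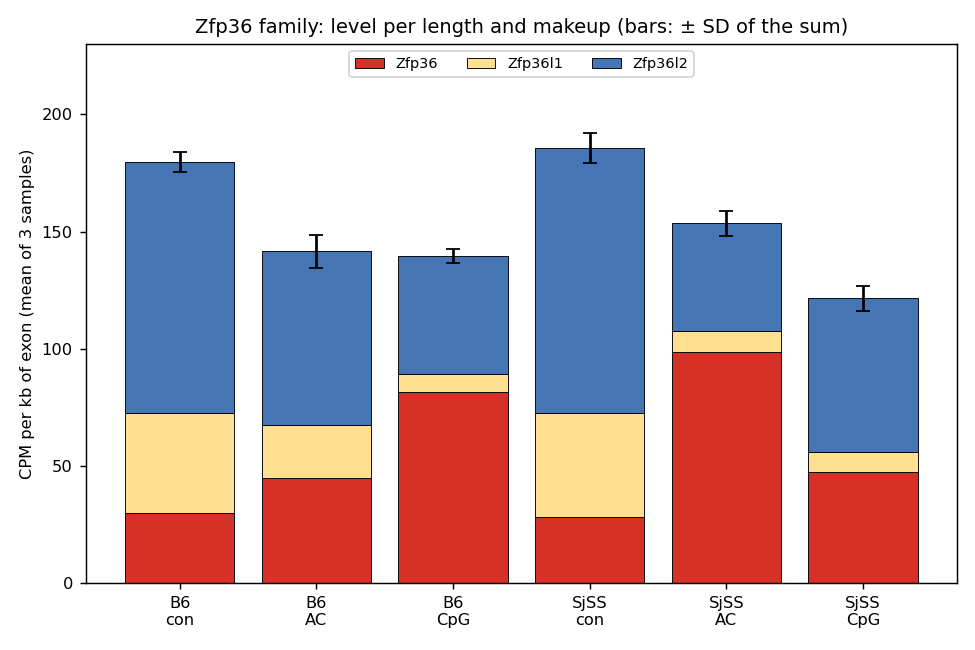
Mean level of *Zfp36* (red), *Zfp36l1* (yellow) and *Zfp36l2* (blue) in CPM per kb of annotated exon, stacked, in the 6 groups (n = 3 each), with bars of ± SD of the summed level. The red part is 64.1% of the sum in SjSS with ACs and 58.5% in B6 with CpG, against 16.9% and 15.4% in the controls.

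HuR mRNA, *Elavl1* (chr8:4285382-4325413, minus strand), rose modestly with both stimuli. B6 samples had 48.9, 47.8 and 45.1 CPM as controls, 59.5, 57.9 and 58.9 CPM with ACs, and 73.1, 65.5 and 74.1 CPM with CpG. SjSS samples had 49.9, 49.2 and 43.1 CPM as controls, 65.9, 67.6 and 70.9 CPM with ACs, and 74.2, 65.9 and 67.4 CPM with CpG. The AC responses were 0.31 in B6 and 0.52 in SjSS, and their difference of 0.21 did not pass the test (SE 0.09, adjusted p = 0.0826). CpG gave 0.58 and 0.55. With ACs *Elavl1* was higher in SjSS than in B6 by 0.21 (SE 0.07, adjusted p = 0.0108), which no longer passed without SjSS AC replicate 3 (adjusted p = 0.0517).

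AUF1 mRNA, *Hnrnpd* (chr5:99955935-99978938, minus strand), also rose in all 4 responses, by 0.25 and 0.56 with ACs and by 0.42 and 0.65 with CpG in B6 and SjSS. Controls had 110, 106 and 96 CPM in B6 and 89.1, 80.6 and 86.1 CPM in SjSS, without overlap. SjSS controls were lower by a log2 fold change of -0.29 (SE 0.06, adjusted p = 0.00193), and with ACs the strains differed by 0.02 (95% interval -0.10 to 0.15, adjusted p = 0.766). The AC responses differed by 0.31 (SE 0.08, adjusted p = 0.00587).

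Roquin-1 mRNA, *Rc3h1* (chr1:160906418-160974978, plus strand), varied least of the 9, the highest group mean being 1.19 times the lowest, with means between 74.7 ± 10.9 CPM in SjSS controls and 89.1 ± 9.52 CPM in SjSS with CpG, each overlapping the next. It had log2 fold changes of 0.04 (95% interval -0.16 to 0.25) with ACs in B6, 0.11 (-0.09 to 0.31) with ACs in SjSS and -0.05 (-0.25 to 0.16) with CpG in B6. The rise of 0.26 with CpG in SjSS passed the test (adjusted p = 0.0325) but not when only the compared groups were fitted (adjusted p = 0.0723), nor without SjSS control replicate 3 (0.215) or SjSS CpG replicate 1 (0.2).

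**Figure D4:**
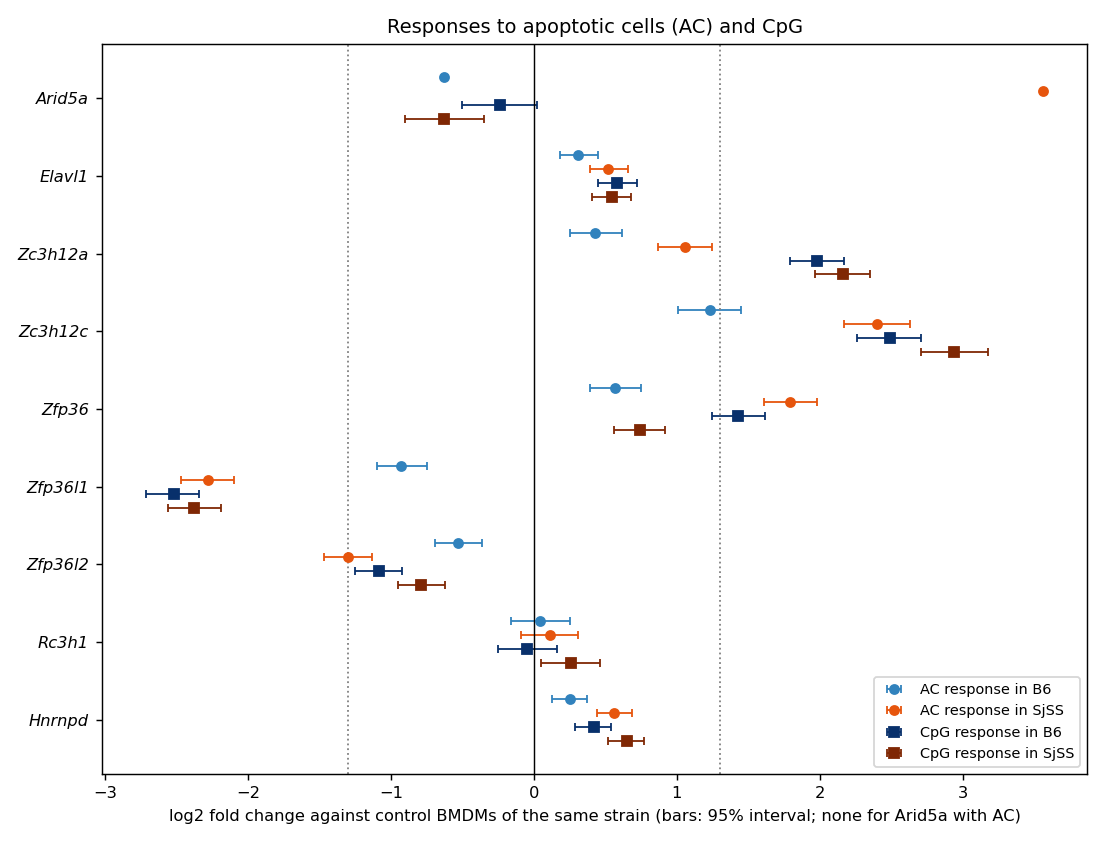
Log2 fold change (x axis) of each gene against control BMDMs of the same strain, for ACs (circles) and CpG (squares) in B6 (blue) and SjSS (orange and brown), with 95% intervals from the edgeR fit except for *Arid5a* with ACs. Dotted lines mark a log2 fold change of 1.3 in either direction. The AC circles of B6 and SjSS lie apart for the *Zfp36* and *Zc3h12* genes, and the circle of *Arid5a* in SjSS stands at 3.56.

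For the counts that follow, a called gene is one that passed the test (adjusted p under 0.05) and changed by more than 1.3 on the log2 scale. In the comparisons that involve ACs the counts are over the 8 genes other than *Arid5a*. With ACs in B6, 0 of the 8 were called by edgeR, as by DESeq2, against 2.43% of all 15789 tested genes called higher and 2.04% lower. Past the adjusted p alone were 38.3% of all genes. An unadjusted p under 0.05 was found for 7 of the 8, a share not counted over all genes, here or below. Without B6 AC replicate 1, *Zc3h12c* was called. With ACs in SjSS, *Zc3h12c* and *Zfp36* were called higher and *Zfp36l1* lower, against 7.09% and 5.83% of all genes, and 58% of genes passed the adjusted p alone. *Zfp36l2* at -1.30 lay at the threshold, just short of it. Of the 8, 5 rose and 2 fell with ACs in either strain by the adjusted p alone.

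With CpG in B6, *Zc3h12a*, *Zc3h12c* and *Zfp36* were called higher and *Zfp36l1* lower, against 5.86% and 6.88% of all genes, with 57.9% past the adjusted p. With CpG in SjSS, *Zc3h12a* and *Zc3h12c* were called higher and *Zfp36l1* lower, against 4.81% and 4.45%, with 54.2% past the adjusted p. Between the strains in controls 0 of the 9 were called by edgeR and by DESeq2, against 1.3% of all genes called higher in SjSS and 0.716% lower. By the adjusted p 3 of the 9 passed, against 19.6% of all genes, and 3 were past an unadjusted p of 0.05. With ACs 0 of the 8 were called by edgeR and by DESeq2, against 6.24% of all genes called higher and 2.69% lower. By the adjusted p 3 of the 8 were higher in SjSS and 2 lower, against 49.4% of all genes in either direction. An unadjusted p under 0.05 was found for 5 of the 8. *Zfp36l1* at -1.30 lay at the threshold there, and it was called without B6 AC replicate 1 or 2 or SjSS AC replicate 2 or 3. With CpG 0 of the 9 were called by edgeR and by DESeq2, against 1.82% of all genes called higher and 0.792% lower. By the adjusted p 3 of the 9 passed, against 19.7% of all genes, and 7 had an unadjusted p under 0.05.

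For the difference between the strains' AC responses, *Zfp36l1* was called lower in SjSS and 0 of the 8 were called higher, against 2.77% and 4.76% of all genes. *Zfp36l1* was no longer called without B6 AC replicate 3, SjSS control replicate 3 or SjSS AC replicate 1. Past the adjusted p alone, 4 of the 8 were higher and 2 lower, with 37.9% of all genes. For the difference between the CpG responses 0 of the 9 were called by edgeR and by DESeq2, against 0.285% of all genes called higher and 0.329% lower. An unadjusted p under 0.05 was found for 6 of the 9. *Zfp36* was the 1 gene of the 9 past the adjusted p there, with 5.85% of all genes. As the genes were chosen with results known, nothing is read from these counts.

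Levels of the 9 genes over the 18 samples were related to each other as a description, since groups and libraries are shared. On log2 CPM *Zc3h12a* and *Zc3h12c* had Pearson's r = 0.93, *Zfp36l1* and *Zfp36l2* 0.92, and *Zfp36* had -0.97 with *Zfp36l2* and -0.87 with *Zfp36l1*. *Arid5a* was most like *Zfp36* among the others, at 0.59, and r with *Zc3h12a* was -0.18. The 5 of 15789 tested genes whose pattern was most like that of *Arid5a* were *Frmd4a* (r = 0.991), *Usp12* (0.987), *Urgcp* (0.986), *Il15* (0.983) and *Gbp9* (0.982). *Il15*, which encodes a cytokine that acts on lymphocytes, had a mean of 107 CPM in SjSS with ACs and 5.61 to 7.21 CPM in the other groups. *Usp12* and *Urgcp* had 366 and 124 CPM there, against at most 121 and 47.4 CPM elsewhere. Each of these patterns is 1 group set against 5.

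The closest paralogs were given whether or not they moved. *Arid5b* rose with ACs by 0.50 in B6 and 0.86 in SjSS, a difference of 0.36 (SE 0.12, adjusted p = 0.0213), from 27.8 ± 0.962 to 39.4 ± 3.83 CPM and from 40.9 ± 2.72 to 74.2 ± 6.67 CPM. *Zc3h12d*, for Regnase-4, fell with ACs in SjSS by 1.15 (adjusted p = 5.37e-09) and had 0.21 in B6 (adjusted p = 0.093), a difference of -1.36 (SE 0.14, adjusted p = 2.11e-07). Its relatives *Zc3h12a* and *Zc3h12c* had AC differences of the opposite sign. *Zc3h12b*, at under 1 CPM in every group mean, was called lower with ACs in SjSS (-1.35, adjusted p = 0.000283), and *Rc3h2*, for Roquin-2, had 0.18 (adjusted p = 0.1).

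Of 23 other tested RNA-binding regulators of cytokine mRNAs, these paralogs included, 11 rose and 6 fell with ACs in SjSS by the adjusted p, with 3 called higher and 1 lower and a median log2 fold change of 0.18. Over all tested genes 58% passed, 7.09% were called higher and 5.83% lower, with a median of -0.02. In B6 10 of the 23 rose and 1 fell, with a median of 0.15, while 38.3% of all genes passed. *Zc3hav1*, for the zinc finger antiviral protein ZAP, is named here and *Dcp2*, *Malt1* and *Mapkapk2* below because of large changes with ACs in SjSS. It went from 154 ± 10.3 CPM in SjSS controls to 666 ± 21.8 CPM with ACs (2.11, adjusted p = 2.37e-13), the largest change of the list. In B6 the change was 0.45, a difference of 1.67 (SE 0.12, adjusted p = 4.92e-09). *Igf2bp1*, with 10 counts over the SjSS controls and 37 over the AC samples, was called higher by 1.96 (adjusted p = 0.00485). With CpG 14 of the 23 rose in either strain, and 3 fell in B6 and 2 in SjSS, with 57.9% and 54.2% of all genes passing.

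Among 28 genes of deadenylation and decapping, the machinery that these proteins recruit, 7 rose and 13 fell with ACs in SjSS and 5 rose and 6 fell in B6, with medians of -0.14 and 0.03, against 58% and 38.3% of all genes passing in either direction. The 1 called gene with ACs in SjSS, where 7.09% of all genes were called higher, was *Dcp2*, the catalytic subunit of the decapping enzyme, at 76.2 ± 6.85 CPM in SjSS controls and 359 ± 19.6 CPM with ACs (2.23, adjusted p = 1.47e-14), against 76.8 ± 3.71 and 95.6 ± 1.67 CPM in B6. Its AC responses differed by 1.92 (SE 0.11, adjusted p = 1.36e-10). With CpG 7 rose and 10 fell in B6, and 9 rose and 7 fell in SjSS, against 57.9% and 54.2% of all genes.

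A further list held signalling proteins of the p38-MK2 and IKK-MALT1 routes, which act on tristetraprolin or Regnase-1 or upstream of them. Not all of them act in the same direction. Of its 17 tested genes, 8 rose and 3 fell with ACs in SjSS and 6 rose and 3 fell in B6, with 58% and 38.3% of all genes passing. *Malt1*, the protease that cleaves Regnase-1, was called in all 4 responses, at 1.33 and 2.76 with ACs and 2.10 and 1.53 with CpG in B6 and SjSS. Its responses differed between the strains by 1.43 with ACs (SE 0.13, adjusted p = 8.2e-08) and by -0.57 with CpG (SE 0.13, adjusted p = 0.0146), the signs seen for *Zfp36*. *Mapkapk2*, for the kinase MK2, rose with ACs by 0.81 in B6 and 2.17 in SjSS, a difference of 1.35 (SE 0.09, adjusted p = 6.83e-10).

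Of 26 tested mRNAs known as targets of the 9 proteins, 22 rose with ACs in SjSS and 0 fell, 18 of them called, with a median log2 fold change of 3.74, against 58% of all genes passing, 7.09% called higher and a median of -0.02. In B6 16 rose and 2 fell, with a median of 1.36 and 38.3% of all genes passing, and with CpG the medians were 3.99 in B6 and 2.47 in SjSS. The AC responses differed between the strains in 19 of the 26 genes, all larger in SjSS, against 37.9% of all genes in either direction. Many of the listed mRNAs, among them *Il6*, *Tnf*, *Il12b*, *Il1b* and *Ccl3*, were already reported by the study as raised by ACs in SjSS. The AC counts of this list were therefore in part known beforehand, and nothing is read from them. In untreated BMDMs 12 of the 26 were lower in SjSS and 0 higher, against 19.6% of all genes in either direction, so these responses started from unlike levels. With CpG 19 were lower in SjSS and 1 higher, against 19.7% of all genes. Cytokine genes of this list are known to respond to transcription as well, and mRNA stability was not measured. *Il6*, the target that Arid5a protects, had 8 counts over the SjSS controls and a mean of 69.3 ± 12 CPM with ACs, against 5.27 ± 1.38 CPM in B6 with ACs. With CpG *Il6* had 23.1 ± 3.1 CPM in B6 and 15 ± 2.48 CPM in SjSS. *Il12b* had 15.8 ± 1.96 CPM in SjSS and 0.867 ± 0.372 CPM in B6 with ACs, but 99.5 ± 2.01 CPM in B6 with CpG. Between these genes the order of stimuli in SjSS was opposite, with *Il6* higher with ACs and *Il12b* with CpG.

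The genes lie on 8 chromosomes, with *Arid5a* and *Rc3h1* on the same one. To see whether strain differences were dense around them, tested genes within 5 Mb were counted for a difference between untreated SjSS and B6 BMDMs. Around *Arid5a* 12 of 75 genes (16%) passed the adjusted p and 0 were called, and around *Rc3h1* 13 of 70 (18.6%) passed and 1 was called. For the other 7 genes the passing share ran from 6.82% around *Elavl1* to 21.7% around *Zc3h12a*, against 19.6% of all tested genes. Other overlapping annotations on the opposite strand were small, the largest being 385 exon bases of *Hnrnpd* with Gm17092 and 204 of *Elavl1* with *Ccl25*.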

How the data were processed

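The data are bulk RNA-seq of 18 BMDM samples, grouped by their labels into 6 groups of 3. Reads were aligned to mm10 by the authors with STAR in Partek Flow, and the deposited values are estimated counts per gene from Partek's E/M quantification, without normalization. Of the values, 41.1% were not whole (tolerance 1e-06), since this method divides reads that fit several genes, and counts were rounded before testing. The submitters' processing notes also name DESeq2 3.13.

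Tests were run with edgeR 4.0.16 and limma 3.58.1 under R 4.3.3. Genes were kept by filterByExpr (15789 of 20615), libraries were scaled by TMM, and a quasi-likelihood model with a mean for each group was fitted to all 18 samples. In each of 11 comparisons, Benjamini-Hochberg adjustment covered all tested genes. A gene passed the test at an adjusted p under 0.05 and was called if it also changed by more than 1.3 on the log2 scale, as the study's methods set it. The standard error was the log2 fold change divided by the square root of F. CPM are given as mean ± SD. The script was tested on simulated data. Alternatives were the Wald test of DESeq2 1.42.0, its size factors in edgeR, other count filters, other fold thresholds and a fit of only the groups compared. Further ones were a block for the replicate number, over all samples or within each strain, and the omission of each sample in turn.

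The 9 genes and the gene lists were chosen with earlier results of these data known. Genes named besides the 9 are 4 paralogs, the 5 most like Arid5a, and from each list the 2 called genes with the largest and the 2 with the most negative log2 fold change with ACs in SjSS. The list genes were thus picked by that response. Nothing is read from their p-values for it or for its difference between the strains. Coordinates, lengths and 3′ UTR sequences are those of GENCODE for mm10, in which 7 of the 9 genes have the start of the deposited table, and promoter sequences are RefSeq's (GRCm38.p6). Exon length is the union over annotated transcripts. Sequence searches and figures were made with matplotlib 3.10.9, numpy 2.4.6 and pandas 2.3.3 in Python 3.11.15. The further culture after the wash is 3 h in the labels and differs in the study's methods.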

Additional observations from a re-analysis of the deposited data

Results flagged for a closer look

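The listed results are those in which the strains' responses to the same stimulus differed by the interaction term of the edgeR fit (SjSS response less B6 response, log2 scale, 3 samples a group). For ACs these were *Zc3h12a* at 0.63 (adjusted p = 0.000564), *Zc3h12c* at 1.16 (adjusted p = 4.83e-06), *Zfp36* at 1.22 (adjusted p = 2.2e-07), *Zfp36l1* at -1.36 (adjusted p = 3.51e-08), *Zfp36l2* at -0.77 (adjusted p = 1.79e-05) and *Hnrnpd* at 0.31 (adjusted p = 0.00587). *Zc3h12a* and *Hnrnpd* were lower in SjSS controls than in B6 controls (-0.63 and -0.29). With ACs the strains did not differ past the test in these 2 genes (0.00, adjusted p = 0.986, and 0.02, adjusted p = 0.766). *Zc3h12c* was lower in SjSS controls (-0.74) and higher in SjSS with ACs (0.42). For CpG *Zfp36* differed, at -0.69 (adjusted p = 0.00219).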

How the results depend on the processing

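Over 99 values of the 9 genes in 11 comparisons, the alternatives gave 1368 values. Those of *Arid5a* with ACs are among them and stay a description. Of these, 1346 kept their side of the adjusted p threshold, 10 no longer passed and 12 newly passed. Direction was compared only where the reported or the alternative value passed, and 0 reversed there. Values that passed in neither fit could change sign near 0, as the strain difference of *Arid5a* in controls did (-0.08 to 0.10). The changes of side fell on 11 results, whose adjusted p in the fit reported ranged from 0.0108 to 0.237. With CpG the strain difference of *Arid5a* also passed by DESeq2's test (adjusted p = 0.0232) and with its size factors (0.0488), and that of *Zc3h12c* passed in 3 alternatives (0.0209 to 0.038). The difference between the CpG responses of *Hnrnpd* passed without B6 control replicate 3 (0.0442).

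The fold threshold set the counts of called genes, in which *Arid5a* is included here, also with ACs. With no fold threshold they were 8 for ACs in B6 and 8 in SjSS, 7 and 9 for CpG, 3 between control BMDMs of the strains, 6 between those with ACs, 3 between those with CpG, and 7 and 1 for the differences in AC and CpG response. With a log2 fold change over 1 they were 1 for ACs in B6, 6 in SjSS (4 over 1.3), 5 for CpG in B6 (4 over 1.3), 3 between strains with ACs and 4 for the difference in AC response, and did not move in the other 4 comparisons. Shares of all tested genes past the adjusted p alone are those given above. The share over 1 was not counted, so nothing is read from these counts. *Arid5a* was the only gene called over 1.3 between strains with ACs, and the only 1 called higher for the difference in AC response. With no fold threshold it is 1 of the genes in each count with ACs. As it led to the choice of the genes, its part in these counts is a description and no result. With no filter on low counts 2 genes were called between strains with ACs. Leaving out a sample gave counts from 0 to 1 for ACs in B6 (1 without B6 AC replicate 1), from 4 to 5 for ACs in SjSS, from 1 to 2 between strains with ACs (2 without B6 AC replicate 1 or 2 or SjSS AC replicate 2 or 3) and from 1 to 2 for the difference in AC response (1 without B6 AC replicate 3, SjSS control replicate 3 or SjSS AC replicate 1). Among these leave-one-out moves, *Zc3h12c* was the gene gained for ACs in B6, *Zfp36l2* for ACs in SjSS and *Zfp36l1* between strains with ACs, and *Zfp36l1* was the gene lost for the difference in AC response.

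Replicate numbers are not said to mark the same mouse, and by the rule used they did not pair the samples. Of 18 same-numbered pairs within a strain 9 had a correlation of deviations over 0.1 (0.0198 to 0.264). Of 36 pairs with unequal numbers within a strain 0 did (-0.252 to 0.0745). For 17 of 18 samples their own number had the highest mean correlation over the other groups of the strain. With the replicate number as a block all 99 gene values kept their side of the adjusted p threshold. The 9 counts of called genes stayed at 0, 4, 4, 3, 0, 1, 0, 2 and 0 in the order of the comparisons, *Arid5a* with ACs included. With the block set within each strain, all 72 gene values outside the direct strain comparisons kept their side as well. At these depths *Arid5a*, the lowest of the genes, had at least 244 counts in every sample.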
